A study of Drosophila melanogaster with 8 samples.

Results

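Of the 8 CUT&RUN libraries in the series, 4 came from wing discs that carried no GFP tag, and these 4 were chosen by their titles: 2 libraries of damaged and 2 of undamaged wild type discs, all treated with a rabbit antibody against GFP. The wing disc is the larval epithelial sac that forms the adult wing and can regrow after injury. The untagged larvae were w1118, a laboratory strain with a mutant white gene. The damaged discs were regenerating and were taken 2 days after damage, and the undamaged discs developed normally. The rest of the series holds the same conditions in larvae whose Zelda protein, a pioneer transcription factor, carries GFP at its own locus, and it enters here only as an outside measurement. The way the discs were damaged, any transgene in the damaged larvae, their age and the number of discs per library are not given in the sources used here. Nothing says that replicates came from separate cohorts of larvae, so every p-value below measures only the spread between these libraries, which may be technical.

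In CUT&RUN an antibody brings a nuclease to its target in permeable nuclei, and the cut fragments are sequenced. Where the antibody has no target, the fragments that remain come mostly from open chromatin, which the nuclease reaches without an antibody, and from repeated sequences, whose copies in the genome are collapsed onto fewer places in the assembly. In flies, open chromatin is found at the promoters of active genes and at enhancers, while the stretches near centromeres are dense in repeats. The 4 untagged lists are therefore described as the background of regenerating and normal discs. No input library was used here, so the accessibility of a sequence and its number of copies in the larvae cannot be told apart.

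On the 6 chromosome arms, the damaged libraries had 2282 and 3706 peaks and the undamaged libraries 1744 and 3355. Each group held a shorter list, from replicate 1, and a longer one, from replicate 2. The mean was 2994 ± 1007 peaks in damaged discs and 2549.5 ± 1139 in undamaged discs (SD, n = 2 each), a difference of 444.5 that was smaller than either spread (exact two-sided permutation test, p = 0.667). With 2 libraries a side, no two-sided permutation p can fall below 0.333. Depth in reads is not known from peak lists. Background coverage recovered from the authors' columns was 52.3 and 46.1 fragments per base in the damaged libraries and 32.6 and 40.4 in the undamaged ones, so both damaged libraries stood above both undamaged ones. Its part in the results that follow was not tested. The median fold enrichment given by the authors' caller was 1.82 and 1.85 in the damaged lists and 2.06 and 1.84 in the undamaged lists. The number of peaks with a fold of at least 3 was 143 and 157 in damaged discs and 211 and 200 in undamaged discs, so counts of such peaks lay lower in both damaged lists, if folds share a scale between lists, which is not given, while counts of all peaks overlapped. The difference in total peaks took the opposite sign without undamaged library 1 (-361) or without damaged library 2 (-267.5).

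**Figure D1:**
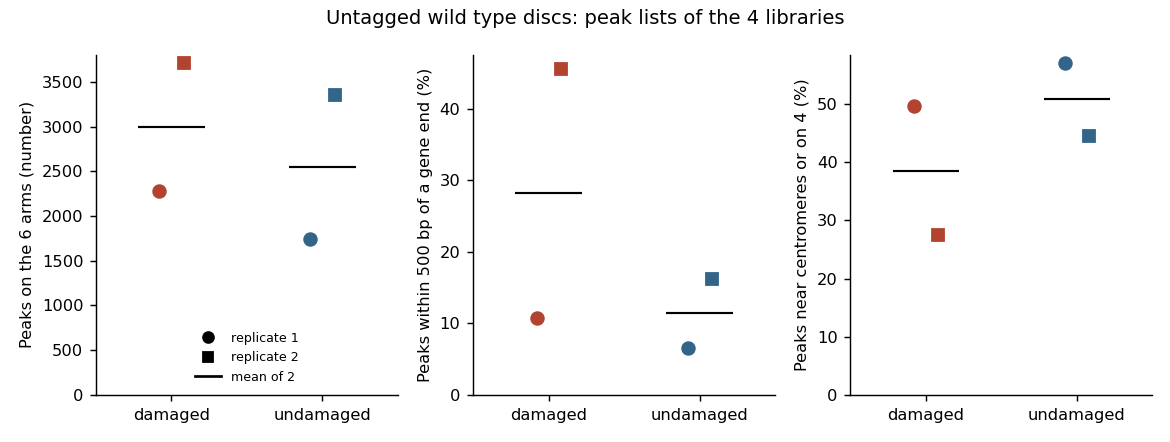
Peaks on the 6 arms (number), share of peaks within 500 bp of a protein-coding gene end (percent) and share of peaks near centromeres or on chromosome 4 (percent), with 1 point per untagged library and a bar at the mean of 2. Damaged replicate 2 stands apart in the middle panel at 45.6%, against 10.7% in damaged replicate 1 and 6.59% and 16.3% in the undamaged libraries.

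The 4 libraries differed in where their peaks fell. In damaged discs, 10.7% of the peaks of library 1 and 45.6% of those of library 2 lay no more than 500 bp from the start or end of a protein-coding gene. In undamaged discs these shares were 6.59% in library 1 and 16.3% in library 2. Damaged library 2 alone had 1691 such peaks, against 244 in its fellow replicate and 115 and 546 in the undamaged libraries. The means were 28.2 ± 24.7% in damaged discs and 11.4 ± 6.84% in undamaged discs (SD, n = 2 each). The difference of 16.7 percentage points did not pass the exact permutation test (p = 0.667), and without damaged library 2 it was -0.742 points. The gene table gives no strand, so an end may be a promoter or a 3′ end.

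Peaks near centromeres ran the other way. Chromosome 4 and rounded stretches beside the centromeres held 49.6% and 27.5% of the peaks in the damaged lists and 57.1% and 44.6% in the undamaged lists. The damaged mean was 38.6 ± 15.7% and the undamaged mean 50.8 ± 8.81% (SD, n = 2 each), a difference of -12.3 points (exact permutation test, p = 0.667). It was -1.17 points without damaged library 2. Among peaks outside those stretches, 20.3% and 61.6% lay at gene ends in damaged discs and 14.6% and 28.8% in undamaged discs, so the order of the libraries was kept. The median distance from a summit to the nearest gene end was 15780 and 1252 bp in the damaged lists and 20964 and 11430 bp in the undamaged lists.

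Merging peaks that shared at least 1 bp gave 6194 regions. Of these, 4150 (67.0%) were called in 1 list and no other, 1848 of them in damaged library 2 and 1606 in undamaged library 2. Regions called in both damaged lists and in no undamaged list, termed the damaged class, numbered 275 (4.44% of all regions). Regions called in both undamaged lists and in no damaged list, the undamaged class, numbered 121 (1.95%). With all lists shortened to 1744 peaks, these counts were 132 in the damaged class and 118 in the undamaged class. A further 826 regions (13.3%) were called in all 4 lists. For comparison, patterns that mix the conditions were not rare: 173 regions were called in both replicate 2 lists and no other, 123 in damaged library 1 and undamaged library 2 and no other, and 49 in both replicate 1 lists and no other. These counts follow from the choice of classes and carry no test. Leaving out a library loosens a class by construction: the damaged class held 2163 regions without damaged library 1, 796 without damaged library 2 and 453 without undamaged library 1. The undamaged class held 1745 without undamaged library 1, 330 without undamaged library 2 and 212 without damaged library 1.

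**Figure D2:**
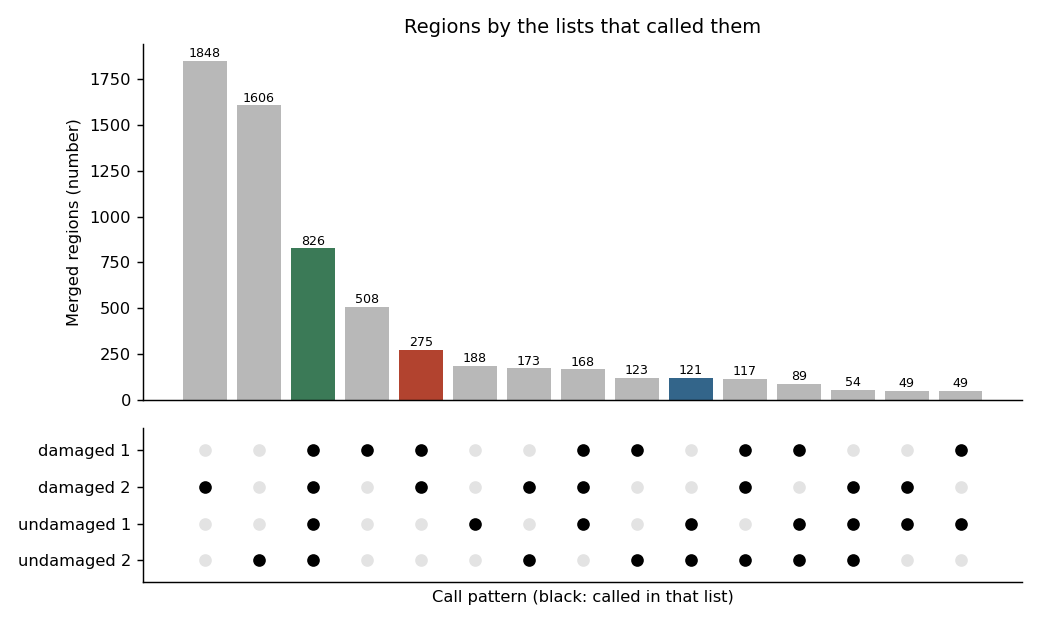
Number of merged regions for each of the 15 call patterns, with black dots marking the lists that called them. The damaged class (275, red), the undamaged class (121, blue) and the regions of all 4 lists (826, green) stand among regions called in 1 list, which reach 1848.

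Lists of unequal length shared unequal fractions. Damaged library 1 held 2155 regions, of which 64.3% were also called in damaged library 2 and 52.5% in undamaged library 1. Damaged library 2 held 3510 regions, of which 39.5% were shared with damaged library 1 and 33.3% with undamaged library 2. Undamaged library 1 held 1544 regions, of which 70.6% were also called in undamaged library 2 and 73.3% in damaged library 1. Undamaged library 2 held 3109 regions, of which 35.1% were shared with undamaged library 1 and 37.2% with damaged library 1. With damaged library 2, the longest list, undamaged libraries 1 and 2 shared 71.0% and 37.6% of their regions. Both undamaged lists thus shared slightly more of their regions with either damaged library than with each other.

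The classes differed in position along the genome. Of the damaged-class regions, 88 (32.0%, 95% Wilson interval 26.8% to 37.7%) lay at a gene end, against 7 of the undamaged class (5.79%, 2.83% to 11.5%) and 81 of the regions in all 4 lists (9.81%, 7.96% to 12%). The share over all 6194 regions was 34.0%, so the damaged class was close to the whole set, and the other classes were below it. Of the 2104 gene-end regions in the whole set, 1386 were called in damaged library 2 alone. Among regions of a single list the share was 75% for damaged library 2, 10.2% for damaged library 1, 20.8% for undamaged library 2 and 4.79% for undamaged library 1. Patterns that mix the conditions also differed. The share was 64.2% (111 of 173) for both replicate 2 lists and no other. It was 4.08% (2 of 49) for both replicate 1 lists and no other. The intervals cover counting error only.

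Regions near centromeres or on chromosome 4 made up 113 of the damaged class (41.1%, 35.4% to 47.0%), 80 of the undamaged class (66.1%, 57.3% to 73.9%) and 465 of those in all 4 lists (56.3%, 52.9% to 59.6%), against 33.7% of all regions. Outside these stretches, 85 of 162 damaged-class regions (52.5%) were at gene ends, 6 of 41 undamaged-class regions (14.6%) and 76 of 361 regions in all 4 lists (21.1%). The whole set there stood at 50.1%. Regions of all 4 lists were wide, with a median of 1344.5 bp and a maximum of 19566 bp, against medians of 578 bp in the damaged class and 531 bp in the undamaged class. Damaged-class peaks were weak: their median fold was 1.76 in damaged library 1 and 1.83 in damaged library 2, just under the medians of those lists. Undamaged-class peaks had medians of 1.96 and 1.89 in the undamaged libraries. At the weak end, the lowest −log10 q-value of a damaged-class peak was 1.47 in library 1 and 1.51 in library 2, near the 1.3 that a q-value of 0.05 gives, so some members lay just inside the authors' calling threshold.

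The Zelda-GFP lists took no part in forming the classes and give an independent look at them. Damaged-class regions were called in 46.5% and 45.8% of cases in the damaged Zelda-GFP lists and 43.3% and 29.5% in the undamaged ones. The means were 46.2 ± 0.514% and 36.4 ± 9.77% (SD, n = 2 each), and every damaged list stood above every undamaged list. The difference of 9.82 points gave p = 0.333, the smallest the exact permutation test allows, and 0.667 after Benjamini-Hochberg adjustment over 5 tests. It changed sign to -10.8 points when all lists were shortened to equal length.

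Undamaged-class regions went the other way in the same lists, with 20.7% and 26.4% called in the damaged Zelda-GFP lists and 44.6% and 30.6% in the undamaged ones. The difference was -14.0 points (exact permutation test, p = 0.333, adjusted 0.667), and it was 0.0573 points when undamaged untagged library 1 was left out of the class rule. Regions of all 4 untagged lists were called in 84.9% and 81.4% of cases in the damaged Zelda-GFP lists and in 88.0% and 80.6% in the undamaged ones. Over all 6194 regions these shares were 28.8% and 28.1% in damaged and 31.4% and 21.1% in undamaged Zelda-GFP lists. Of the damaged class, 25 regions (9.09%) repeated the full pattern, called in both damaged and no undamaged Zelda-GFP list, and 83 (30.2%) were in no Zelda-GFP list. Of the undamaged class, 10 (8.26%) were called in both undamaged and no damaged Zelda-GFP list, and 52 (43.0%) were in none. Over all 6194 regions, 259 (4.18%) had that damaged pattern and 110 (1.78%) that undamaged pattern in the Zelda-GFP lists, and 55.5% were in none.

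The 85 damaged-class regions at gene ends outside the centromere-proximal stretches, a subset chosen after the values were seen, were also looked up in the Zelda-GFP lists. They were called in 40.0% and 45.9% of cases in the damaged Zelda-GFP lists and in 15.3% and 10.6% in the undamaged ones. The difference was 30.0 points (exact permutation test, p = 0.333, not adjusted). On the arms, the damaged Zelda-GFP lists held 1158 and 1344 peaks at gene ends, against 441 and 108 in the undamaged ones. The test therefore cannot tell this subset apart from the make-up of the lists. All gene-end regions outside those stretches were called in 17.9% and 20.6% of cases in damaged and 9.91% and 4.47% in undamaged Zelda-GFP lists, so the whole set had the same order at lower levels.

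**Figure D3:**
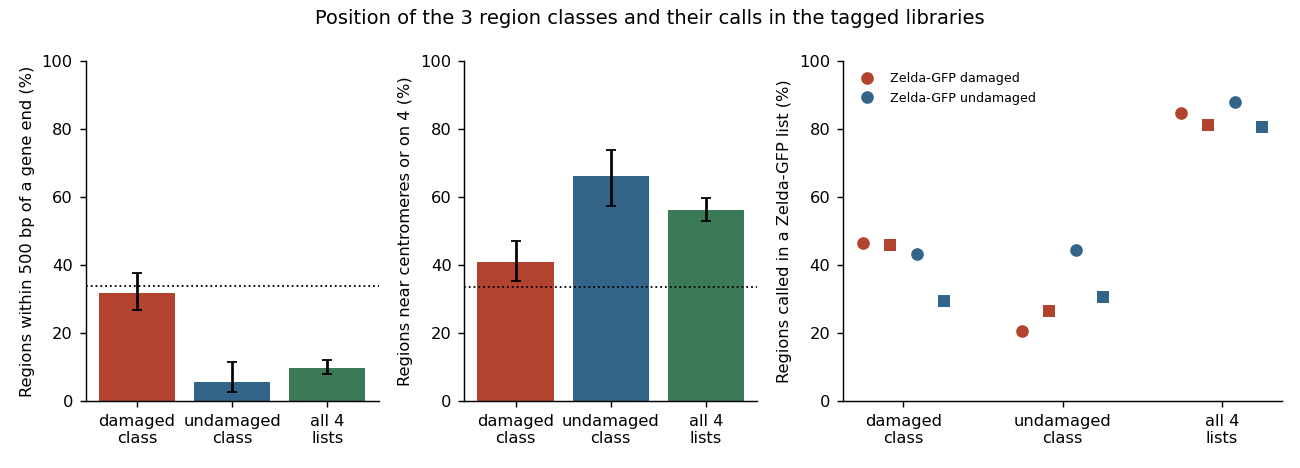
Percent of each class within 500 bp of a gene end (left) and near centromeres or on chromosome 4 (middle), with 95% Wilson intervals and a dotted line at the share of all 6194 regions, and percent of each class called in each Zelda-GFP list (right, circles replicate 1, squares replicate 2). The damaged class lies at 32.0% for gene ends, the undamaged class at 5.79%, and the regions of all 4 lists were called in 80.6% to 88.0% of cases in the Zelda-GFP lists.

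Across all 13922 protein-coding genes, a gene was counted as called when a peak overlapped its body or 500 bp on either side. A longer gene thus offers a wider window for a call, and no share of genes given here is adjusted for gene length. Called genes numbered 734 (5.27%) and 3104 (22.3%) in the damaged lists and 419 (3.01%) and 1368 (9.83%) in the undamaged lists. The damaged class held 198 genes (1.42%), the undamaged class 13 (0.0934%), and 302 (2.17%) were called in all 4 lists. The damaged class held far fewer of the genes than damaged library 2 did, and few genes marked the undamaged class. The damaged-class count was 2331 without damaged library 1 and 311 without damaged library 2, and 104 with lists of equal length. The undamaged-class count was 591 without undamaged library 1, 39 without undamaged library 2, 36 without damaged library 2 and 24 without damaged library 1.

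The strongest damaged-class region lay on X at 21532719-21533609 (dm6 coordinates, as all below). Its fold was 6.36 in damaged library 1 and 6.61 in damaged library 2, with no peak in either undamaged list. It overlapped no annotated gene, and all 4 Zelda-GFP lists called it. A region at X:13999778-14000841 had folds of 6.10 and 6.67 in the damaged lists and lay at ben, which encodes a ubiquitin-conjugating enzyme, and at Ste12DOR, a relative of the Stellate genes. It too was called in every Zelda-GFP list. The next was X:21715087-21715444, with damaged-list folds of 3.37 and 3.98, inside lncRNA:flam, the flamenco locus whose transcripts feed piRNAs against transposons in the ovary. All 4 Zelda-GFP lists called it, and flam as a whole held 26 and 27 peaks in damaged and 24 and 19 in undamaged untagged discs.

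Nearly all Stellate genes fell in the damaged class. They are a tandem array on X of protein-coding repeats related to the regulatory subunit of casein kinase 2, and are kept silent in the male germline by piRNAs. This family was listed after its calls had been seen. All 14 members were called in both damaged lists, against 2 in undamaged library 1 and 1 in undamaged library 2. The damaged class held 12 of them, where 1.42% of protein-coding genes fell. The family held 6 damaged-class regions, and a single peak can call neighbouring copies, so these genes are not separate observations. The remaining members included SteXh:CG42398, called in all 4 lists. Over the 15046 bp of the main array of 12 genes, the damaged libraries had 6 and 9 peaks covering 7445 and 7213 bp, and the undamaged libraries had 1 and 0 peaks covering 317 and 0 bp. The highest fold in the array was 3.11 and 2.96 in the damaged lists and 2.26 at the lone undamaged peak. Both Zelda-GFP groups called the array alike, with 6 and 8 peaks in damaged and 7 and 7 in undamaged discs, so few or no peaks were found there in the undamaged untagged libraries and in no other group. The copies are near-identical, so the call of each copy depends on how reads with several matches were placed, which is not given in the sources used here.

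The white gene w, which encodes a transporter of eye pigment precursors and is also the usual visible marker on fly transgenes, showed the same split in the untagged discs. Damaged library 1 had peaks at X:2789977-2793126 (fold 2.66) and X:2796096-2796464 (fold 2.52). Damaged library 2 had peaks at X:2789967-2793120 (fold 2.91) and X:2796096-2796562 (fold 2.72). Neither undamaged library had a peak at w. The merged regions also overlapped kirre, a cell adhesion gene of muscle founder cells. The covered parts lay at the 2 ends of the 5868 bp gene, and the stretch between 2.53 and 5.50 kb held no peak in any untagged list. The Zelda-GFP lists had 2 and 2 peaks there in damaged discs and 0 and 2 in undamaged discs, so the call did not follow damage in the tagged larvae. Transgenes and the source of the X chromosome in each group are not given in the sources used here, so at w and at the Stellate array damage cannot be told apart from a difference in genotype between the groups.

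At lncRNA:Hsromega, a nuclear noncoding RNA induced by heat and other stress, peaks were found in all 4 lists but not at the same places. The region 3R:21299453-21300122, 3.33 to 4 kb into the locus, had folds of 2.87 in damaged library 1 and 2.72 in damaged library 2. It had no peak in undamaged untagged discs. Among the Zelda-GFP lists, only that of damaged library 2 called this region. A peak near 1 kb had folds of 1.76 and 2.17 in the damaged lists and none in undamaged discs. Between 11.6 and 13.4 kb every library had a peak, with folds of 4.63 and 3.87 in damaged discs and 2.23 and 3.01 in undamaged discs. Undamaged library 2 had 4 more peaks between 5.55 and 9.31 kb, where damaged library 1 had 2 and the other libraries had none. In its first 4 kb the locus held peaks of both damaged and no undamaged list, the stretch from 5.55 to 9.31 kb was called in 1 list of each group, and the stretch from 11.6 to 13.4 kb was called in all 4 lists.

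**Figure D4:**
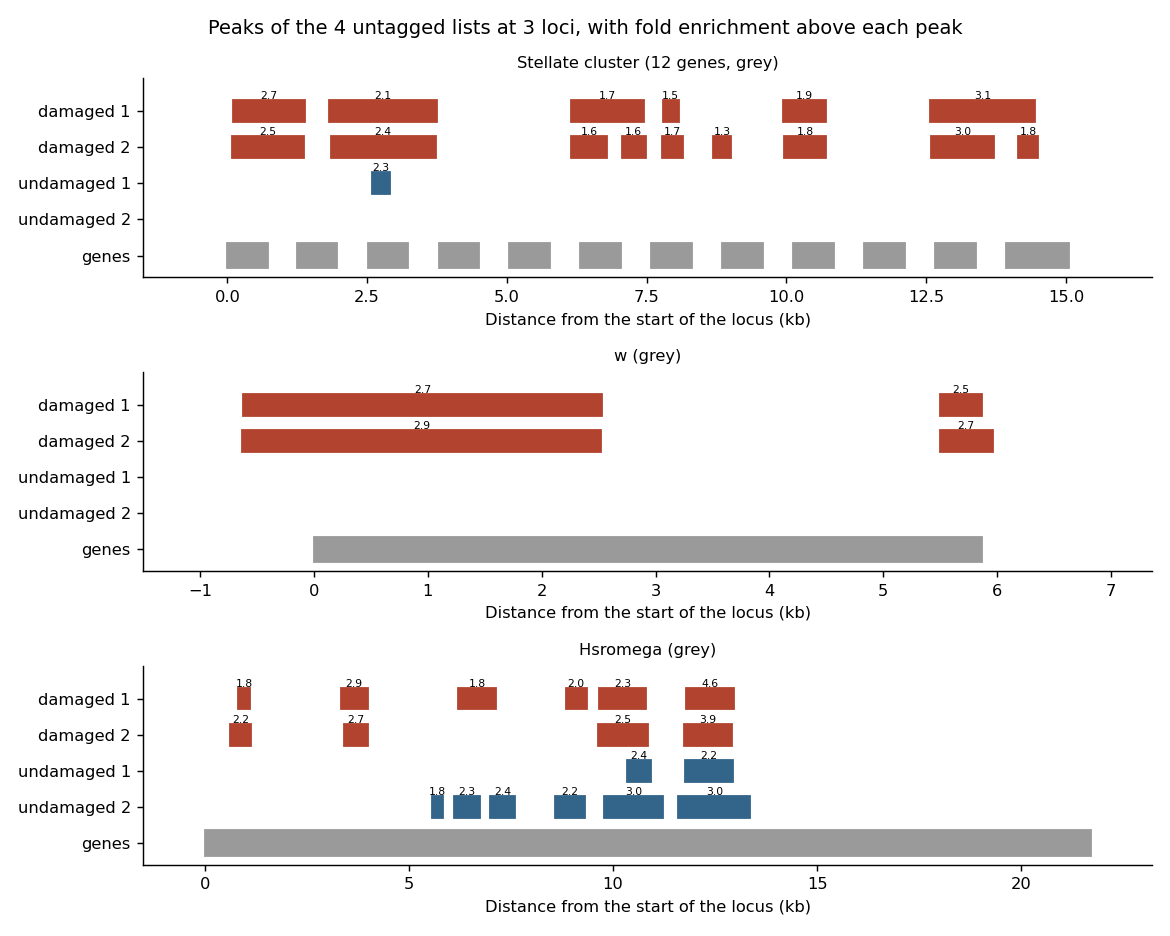
Peaks of the 4 untagged lists (boxes, red damaged and blue undamaged) at the Stellate array, w and Hsromega, by distance in kb from the lower-coordinate end of the locus, with the authors' fold above each peak and genes in grey. Damaged libraries cover the Stellate array with 6 and 9 peaks, against 1 and 0 in undamaged libraries, and hold both w peaks, while the peaks beyond 11.6 kb of Hsromega appear in all 4 libraries.

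Other leading damaged-class regions were the stretch 2L:5743096-5745185 within CG11030, with damaged-list folds of 2.82 and 2.91 and no call in any Zelda-GFP list, and 3L:26862877-26863387, with folds of 2.87 and 2.74 and no gene within 500 bp. At gene ends the leading regions after Stellate and w, named after their values were seen, included the following. The region 2R:16196474-16196878 lay at caly, a deubiquitinase of the Polycomb group, and Lipt1, a lipoyltransferase (folds 2.31 and 3.02 in the damaged lists). The region 2R:16336143-16336581 lay at Vha44, a subunit of the proton pump of acidic organelles, and Hmgs, the enzyme that makes HMG-CoA (2.16 and 3.10). The region 2L:7885638-7886034 lay at SmE, a core protein of spliceosomal particles (2.06 and 2.97), and 2R:7825570-7826743 at phr, a DNA photolyase (2.08 and 2.84).

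Genes of protein synthesis and energy metabolism were called mainly in damaged library 2, and cytosolic ribosomal protein genes in undamaged library 2 as well. Of 92 cytosolic ribosomal protein genes, 1 and 33 were called in the damaged lists and 0 and 18 in the undamaged lists, and RpLP2, which encodes an acidic protein of the ribosomal stalk, was the damaged-class member, with folds of 1.82 and 2.93 at 2R:16586187-16586765. The 3 lists that follow were put together after their calls had been seen. Of 73 mitochondrial ribosomal protein genes, 4 and 35 were called in damaged discs and 0 and 4 in undamaged discs, with mRpL28, mRpS18A and mRpL55 in the damaged class. Of 80 respiratory chain and ATP synthase genes, 5 and 26 were called in damaged discs and 1 and 6 in undamaged discs. Its 5 damaged-class members were ND-15 and UQCR-Q, subunits of the electron transport chain, and ATPsynC, ATPsynD and ATPsynE, subunits of ATP synthase. Of 33 vacuolar ATPase genes, 3 and 12 were called in damaged discs and 0 and 2 in undamaged discs. Against the 22.3% of all genes called in damaged library 2, these lists reached 35.9%, 47.9%, 32.5% and 36.4% there. Damaged library 1 called 1.09%, 5.48%, 6.25% and 9.09% of them, against 5.27% of all genes. In undamaged library 2 the shares were 19.6%, 5.48%, 7.5% and 6.06%, against 9.83% of all genes. Undamaged library 1 called 0%, 0%, 1.25% and 0%, against 3.01%. The damaged-class shares were 1.09%, 4.11%, 6.25% and 6.06%, against 1.42% of all genes.

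Genes of insulator proteins, which bind chromatin boundaries, were also listed after their calls were seen. Of 12 genes, 5 and 9 (41.7% and 75%) were called in the damaged lists and 0 and 0 in the undamaged lists, against 5.27% and 22.3% of all protein-coding genes in damaged and 3.01% and 9.83% in undamaged discs. The damaged class, with 1.42% of all protein-coding genes, held 5 of the 12: CTCF, lolal, ZIPIC, mod(mdg4) and Trl, which encodes the GAGA factor and was called through peaks in no damaged-class region. The folds were low: 1.57 and 2.09 at CTCF in the damaged lists, 1.65 and 1.64 at lolal, and 1.54 and 1.53 at ZIPIC. At mod(mdg4), a gene assembled by trans-splicing, the damaged-class regions 3R:21367533-21369681 and 3R:21370091-21371391 had folds of 1.75 and 1.79, and of 2.02 and 1.59. The Zelda-GFP lists called 7 and 6 of the 12 genes in damaged discs and 0 and 0 in undamaged discs, where they called 16.4% and 17.7% of all protein-coding genes in damaged and 7.76% and 2.98% in undamaged discs.

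Of the pathways known for wing disc regeneration, calls came mainly from the longer list of each group. JNK signalling is activated at wounds and JAK/STAT signalling by cytokines of the Unpaired family acts in regrowth. Of 14 JNK wound response genes, 0 and 5 (0% and 35.7%) were called in damaged discs and 0 and 3 (0% and 21.4%) in undamaged discs. All protein-coding genes stood at 5.27% and 22.3% in the damaged lists and 3.01% and 9.83% in the undamaged lists. The JNK list was thus above the share of all genes in both replicate 2 lists and at 0 in both replicate 1 lists. In damaged library 2 these were Ets21C, Pvr, bsk, msn and kay, and in undamaged library 2 they were Ets21C, Jra and Mmp1. Of 10 JAK/STAT genes, 0 and 4 (0% and 40%) were called in damaged discs and 1 and 1 (10% each) in undamaged discs. In damaged library 2 they were Socs36E, a feedback inhibitor, Stat92E, the transcription factor of the pathway, Su(var)2-10 and Ptp61F, and in both undamaged libraries Ptp61F. No gene of either list fell in a class, although Ptp61F, a phosphatase that restrains JAK/STAT signalling, held 2 undamaged-class regions inside the gene, the stronger at 3L:1426702-1428011 with folds of 2.19 and 1.85 in undamaged discs.

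Of 10 apoptosis genes, 1 and 2 (10% and 20%) were called in damaged discs and 0 and 2 (0% and 20%) in undamaged discs. For comparison, 5.27% and 22.3% of all protein-coding genes were called in damaged and 3.01% and 9.83% in undamaged discs. The cell death gene rpr was called in damaged library 1 and undamaged library 2, the caspase genes Dcp-1 and Dronc in damaged library 2, and hid, a partner of rpr in cell death, in undamaged library 2. Of 15 heat shock genes, 0 and 5 (0% and 33.3%) were called in damaged discs and 1 and 2 (6.67% and 13.3%) in undamaged discs, with none in a class. The called members were Hsf, Hsp26, Hsp68, Hsp70Ba and Hsp70Bb, all in damaged library 2, with Hsp70Bb also in both undamaged libraries and Hsp70Ba in undamaged library 2. Of 11 genes of maturation and regeneration, 3 and 5 (27.3% and 45.5%) were called in damaged discs and 1 and 2 (9.09% and 18.2%) in undamaged discs, all above the shares of all genes. Besides Trl, tara, which maintains posterior fate in regenerating discs, was called in both damaged libraries and undamaged library 1, and chinmo, which maintains the larval state, in damaged library 1 and undamaged library 2. Clamp, EcR and osa were called in damaged library 2 and Eip75B in undamaged library 2. Of 13 genes of Hippo signalling and growth matched, 2 and 4 (15.4% and 30.8%) were called in damaged discs and 1 and 3 (7.69% and 23.1%) in undamaged discs. CycE, the cyclin that starts S phase, was called in all 4 lists, with folds of 1.87 and 2.05 in damaged discs and 2.57 and 1.88 in undamaged discs at 2L:15726420-15727302. The protocadherin gene ds held a damaged-class region at 2L:694427-695031, with folds of 1.54 and 1.76. The gene as a whole was also called in undamaged library 2, so it fell in no class.

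Of 20 wing patterning genes matched, 1 and 4 were called in damaged discs and 0 and 6 in undamaged discs, shares of 5% and 20% against 0% and 30%, and none fell in a class. The shares of all protein-coding genes were 5.27% and 22.3% in damaged and 3.01% and 9.83% in undamaged discs, so the damaged lists called these genes about as often as any gene. The damaged Zelda-GFP lists called 16 and 17 of them, where they called 16.4% and 17.7% of all protein-coding genes, and the mean differed by 14 genes from that of the damaged untagged lists (exact permutation test, p = 0.333). Among markers of the disc itself, nub was called in damaged library 1 and undamaged library 2, rn in undamaged library 2, and vg, ap and sd in no untagged list. Peaks are not transcripts, so these calls do not test the labelled tissue. Of markers of other cells that a dissected disc can hold, 0 and 2 of 8 hemocyte, 1 and 1 of 6 myoblast, 0 and 0 of 5 tracheal, 0 and 1 of 6 fat body and 0 and 0 of 5 neural and glial genes were called in damaged discs. In undamaged discs, 1 and 1 hemocyte, 0 and 1 myoblast, 0 and 2 tracheal, 0 and 0 fat body and 0 and 1 neural and glial genes were called. These lists hold 5 to 8 genes, and 5.27% and 22.3% of all genes were called in damaged and 3.01% and 9.83% in undamaged discs. None of these markers fell in a class.

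**Figure D5:**
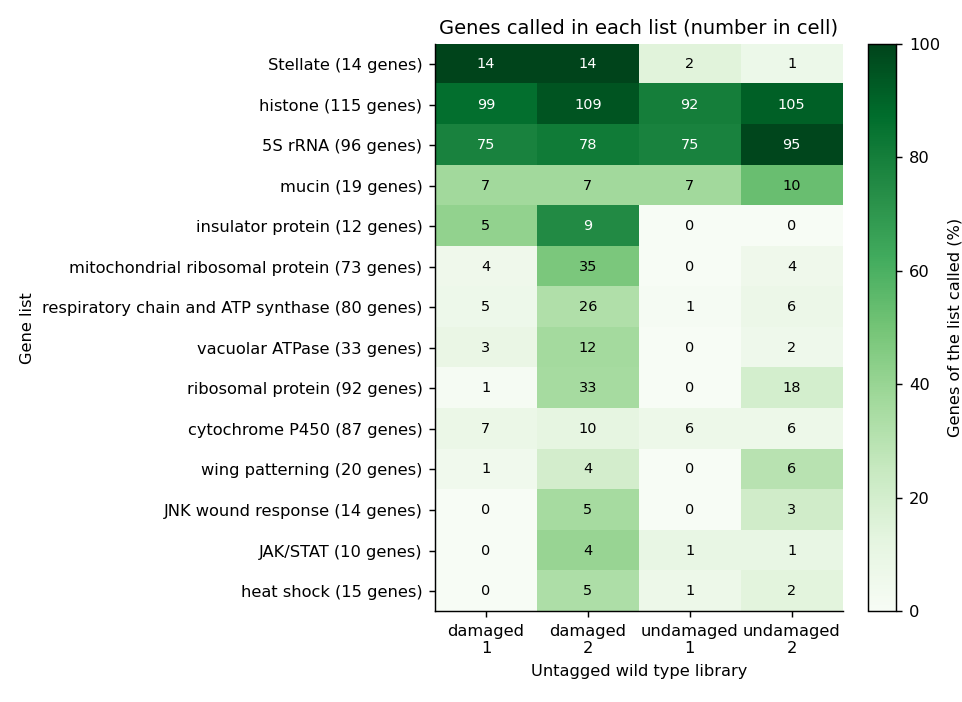
Number (in each cell) and percent (shade) of the genes of 14 lists called in each untagged library. Stellate genes fill both damaged columns (14 and 14) and not the undamaged ones (2 and 1), histone and 5S rRNA genes fill all 4 columns, and metabolic lists darken in damaged replicate 2.

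The undamaged class was small, and its strongest regions lay near the centromere of 3R. Its first region, 3R:172633-175916, had folds of 3.42 and 4.41 in the undamaged lists, and the longest, 3R:37834-44152, had folds of 2.65 and 3.46. Neither is within 500 bp of an annotated gene. The region 3R:2078536-2079995 lay in Myo81F, an unconventional myosin gene in the repeat-rich part of that arm, with folds of 2.64 and 2.37. Outside these stretches, the leading undamaged-class regions lay in mucin genes, which encode secreted glycoproteins with long internal repeats. These were 3L:11611531-11611955 in Muc68Ca (2.46 and 2.74), 2L:9898512-9899820 in Muc30E (2.38 and 3.16), 2L:6152536-6153065 in Muc26B (2.2 and 5.89) and X:16024092-16024598 in Muc14A (2.73 and 2.03).

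Most of these mucin genes were also called in damaged discs, at other places in the gene. Of 19 mucin genes, listed after their calls were seen, 7 and 7 (36.8% each) were called in damaged discs and 7 and 10 (36.8% and 52.6%) in undamaged discs, against 5.27% and 22.3% of all protein-coding genes in damaged and 3.01% and 9.83% in undamaged discs. Those called in all 4 lists were Mur2B, Muc12Ea, Muc14A, Muc30E, Muc68Ca and Muc68E (31.6% of the list, against 2.17% of all protein-coding genes), and Muc26B was the member called in both undamaged lists and no damaged one. Counting regions, mucin genes held 2 of the 275 in the damaged class, 4 of the 121 in the undamaged class and 9 of the 826 in all 4 lists. In Muc68Ca the damaged libraries had 2 and 2 peaks and the undamaged libraries 3 and 4. The undamaged-class genes besides Muc26B were iav, an ion channel subunit of hearing organs, MsR2, a neuropeptide receptor, jp, MRP, CNBP, Best4, bt, a giant muscle protein of the titin family, Mitf, a transcription factor of lysosomal genes, and CG9400, CG46468, CG7213 and CG40228. Best4 and CG9400 held no undamaged-class region: each lay within 500 bp of a region of all 4 lists, at 3L:15295898-15298494 for Best4 and X:14286221-14287770 for CG9400, of which only the undamaged peaks came near enough to count.

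The regions of all 4 lists are the background that regenerating and normal discs had in common. The highest folds were at 3R:3169584-3170370 in Pzl, a gene of the Piezo channel family, with 23.7 and 25.3 in damaged discs and 28.9 and 22.5 in undamaged discs. Close behind were 2R:1825697-1826686, with 22.5 and 24.4 in damaged discs and 26.2 and 23.7 in undamaged discs, and 2L:23512796-23513696, with 19.6 and 21.6 in damaged discs and 23.5 and 20.3 in undamaged discs. All lie near centromeres, and each was among the strongest peaks of every list. Outside the centromere-proximal stretches, most of the highest-ranked regions lay inside protein-coding genes, away from their ends. The gene nAChRalpha3, for a subunit of the acetylcholine receptor, had folds of 7.11 and 8.19 in damaged discs and 8.50 and 8.74 in undamaged discs at X:8293665-8296173. The kinase gene Tlk had 6.49 and 7.01 in damaged discs and 6.94 and 9.14 in undamaged discs at X:3727624-3729673. Further regions of this kind lay in Ptp10D, a receptor tyrosine phosphatase, nmo, the Nemo kinase, InR, the insulin receptor, and Pka-R1, a regulatory subunit of protein kinase A. At InR (3R:21609615-21611582) the folds were 5.26 and 5.84 in damaged discs and 5.72 and 6.81 in undamaged discs. A region in the 5S rRNA array, 2R:19737404-19740444, also ranked among the highest and lay in no protein-coding gene. Its folds were 6.60 and 7.50 in damaged discs and 6.88 and 4.46 in undamaged discs.

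Repeated gene families were called in all 4 lists at many of their copies, although histone, 5S rRNA, mucin and Stellate genes together held only 59 of the 826 regions (7.14%). Of 115 histone genes, 111 lie in the array of replication-dependent copies on 2L, and His2Av, His3.3A, His3.3B and His4r lie outside it. In the array, 99 and 106 genes were called in damaged discs and 92 and 104 in undamaged discs, against 5.19% and 19.3% of all 17684 genes in the table in damaged and 3.19% and 9.26% in undamaged discs. All 4 lists called 88 of them, against 2.41% of all genes, and none of the genes outside the array. A single peak can call neighbouring copies, so the genes of the array are not separate observations. The histone array held 56 and 63 peaks over 45130 and 43397 bp in damaged discs and 50 and 62 peaks over 35698 and 38953 bp in undamaged discs. Covered length was thus greater in both damaged untagged libraries. In the Zelda-GFP lists it was 38868 and 40204 bp in damaged and 45611 and 33680 bp in undamaged discs, so that order was not repeated. The highest fold in the array was 5.96 and 5.08 in the damaged untagged lists and 4.83 and 4.78 in the undamaged ones, each on the scale of its own list. His1:CG33807 and His3:CG33818 fell in the damaged class, where 1.25% of all genes in the table fell.

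5S rRNA, the small RNA of the large ribosomal subunit, has 96 genes in an array on 2R, listed after their calls were seen. Of these, 75 and 78 were called in damaged discs and 75 and 95 in undamaged discs. All genes in the table stood at 5.19% and 19.3% in damaged and 3.19% and 9.26% in undamaged discs. In all, 71 of the 5S rRNA genes were called in every list, against 2.41% of all genes. Neighbouring copies can share a peak here too, so they are not separate observations. The undamaged class held 3, where 0.113% of all genes fell. No undamaged-class region lay at a 5S rRNA gene, so these 3 were called through peaks in regions of other patterns. Undamaged library 2 covered 32198 bp of the 36717 bp array with 9 peaks, against 14592 and 15050 bp in the damaged libraries and 13705 bp in undamaged library 1. Genes of tRNAs, which are also transcribed by RNA polymerase III but lie scattered, were rarely called. Of 295, 2 and 10 (0.678% and 3.39%) were called in damaged discs and 0 and 18 (0% and 6.10%) in undamaged discs. These shares were below those of all genes in each list, but tRNA genes are short and offer a narrower window for a call. Of 87 cytochrome P450 genes, enzymes of hormone and toxin metabolism listed after their calls were seen, 7 and 10 (8.05% and 11.5%) were called in damaged discs and 6 and 6 (6.90% each) in undamaged discs, against 5.27% and 22.3% of all protein-coding genes in damaged and 3.01% and 9.83% in undamaged discs. The members called in all 4 lists were Cyp28d1, Cyp28d2, Cyp9b1, Cyp9b2 and Cyp9f2 (5.75% of the list, against 2.17% of all protein-coding genes). The 35 glutathione S-transferase genes, whose enzymes detoxify by conjugation, were also listed after their calls were seen. Of them, 2 and 7 (5.71% and 20%) were called in damaged discs and 2 and 1 (5.71% and 2.86%) in undamaged discs. All protein-coding genes stood at 5.27% and 22.3% in damaged and 3.01% and 9.83% in undamaged discs. GstD11 (2.86% of the list) fell in the damaged class, through peaks in no damaged-class region, where 1.42% of all protein-coding genes fell. GstD1 (2.86%) was called in all 4 lists, as were 2.17% of all protein-coding genes.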

How the data were processed

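The deposited files are 1 narrowPeak list per library. Per the submitters' processing notes, bcl2fastq 2.20, Bowtie2, SAMtools, Picard, deepTools and MACS2 were used with build dm6. The part each played, and whether a control library entered peak calling, are not given in the sources used here. The authors' fold is a linear ratio of pileup to expected coverage, and the deposited −log10 columns are of each peak's p-value and q-value. The deposited score, a multiple of the −log10 q-value, was not used in any result. Folds describe and rank peaks within a list, since no common scale is given.

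Peaks on 2L, 2R, 3L, 3R, 4 and X that shared at least 1 bp were merged, and classes were formed by call pattern. Centromere-proximal meant chromosome 4, 2L from 22 Mb, 2R up to 6 Mb, 3L from 23 Mb, 3R up to 5 Mb and X from 21 Mb, rounded limits set by hand. Gene names and positions came from a RefSeq table of Release 6, the assembly of dm6, and it holds neither strand nor exons. Pileup and expected coverage were recovered from fold and p-value under a Poisson tail, and 100% of peaks gave a whole pileup within 0.05. The lowest expected coverage in a list is its background coverage. Tests were exact two-sided permutation tests over libraries, with Benjamini-Hochberg adjustment over 5 tests. The tests of wing patterning genes and of damaged-class gene-end regions outside centromere-proximal stretches stood outside these 5 and were not adjusted. Merging and classing were tested on simulated data. The named regions are the 8 of each class that ranked highest when fold percentiles, taken inside each list, were averaged. Other regions, at gene ends, outside the centromere-proximal stretches or at listed genes, were named after their values were seen. Of the listed genes, those in a class are named where few, with those called in any list for the short pathway lists. Members and lists were chosen with earlier results of these data known. Python 3.11.15, pandas 2.3.3 and scipy 1.17.1 were used. Alternatives covered the q-value threshold, list length, overlap rule, gene flank, sequences, each library left out and a replicate block. Whether the replicate numbers pair the libraries is not given, and a check is described with the effects of processing.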

Additional observations from a re-analysis of the deposited data

Results flagged for a closer look

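Peaks outside the 6 chromosome arms entered no comparison above. Merged in the same way, they gave 1656 regions on chromosome Y, unplaced sequences and other scaffolds. Of these, 22 were called in both damaged and no undamaged list, 66 in both undamaged and no damaged list, and 709 in all 4 lists. On the arms the order of the first 2 counts was the opposite, with 275 in the damaged class and 121 in the undamaged class. The share of peaks off the arms was 30.2% and 19.6% in the damaged lists and 35.6% and 32.2% in the undamaged lists, so both damaged lists lay below both undamaged ones. With 2 libraries per group, a library far from its group could not be singled out by a test of extreme values.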

How the results depend on the processing

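Peak lists give no read counts, so depth limits what can be said of single peaks, and 2 libraries per group let no test pass 0.05. The peak-count difference reversed at a fold of at least 3 (-55.5, 150 in damaged against 205.5 in undamaged lists) and ranged from -361 (without undamaged library 1) to 1250 (without undamaged library 2) when 1 library was left out, with -267.5 without damaged library 2. The gene-end difference ranged from -0.742 (reversed, without damaged library 2) to 34.2 points, and the centromere difference from -23.4 to -1.17 points. The damaged-class difference in Zelda-GFP lists reversed with lists of equal length (-10.8 points, 33.2% against 44.0%) and ranged from 1.70 to 16.7 when libraries were left out. The undamaged-class one ranged from -21.1 to 0.0573 (reversed, without undamaged untagged library 1), and was -32.6 (4.35% against 37.0%) with lists of equal length. Equal length meant 1744 peaks per list, or 1698 where Zelda-GFP lists entered.

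Leaving out a library loosens a class by construction. The damaged class then held 396 to 2163 regions and 219 to 2331 genes, the undamaged class 177 to 1745 regions and 24 to 591 genes, and regions of all lists numbered 892 to 1019. Lists of equal length gave 132 damaged-class and 118 undamaged-class regions, 104 damaged-class genes and 29 undamaged-class genes. Gene bodies alone gave 130 damaged-class genes, and windows of 100 bp around summits gave 437 regions in all 4 lists. With all sequences, 187 regions fell in the undamaged class and 1535 in all 4 lists. Outside the centromere-proximal stretches, a setting chosen after seeing the data, the damaged class, the undamaged class and all 4 lists held 162, 41 and 361 regions. The cause of these shifts was not tested beyond what each setting removes. The other 82 values kept their direction, or stayed within 1.5 times the main count. They include the replicate-block and crossed-pairing values, which equal the main differences by construction and could not move.

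The replicate block used differences within a shared replicate number, which were averaged to 444.5 peaks, 16.7 points for gene ends, -12.3 for centromeres, 9.82 for the damaged class and -14.0 for the undamaged class in Zelda-GFP lists (exact sign-flip test, p = 0.5, the smallest 2 pairs allow). The pairing check gave r = -0.126 across 6194 regions between the conditions' replicate differences. Places called in no list are absent from it, so it cannot show whether the libraries were paired. Crossed pairing, chosen after seeing the data, gave 0 tests past 0.05, as did the block and the fit without it.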
